A study of Homo sapiens with 12 samples.

Results

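The 46 genes described here encode the core proteins of DNA replication. They were taken by name from a deposited expression table of 38516 genes, and all 46 were found there. The table comes from RNA sequencing of KYSE150 and KYSE510, 2 established cell lines of human esophageal squamous cell carcinoma (ESCC), grown in RPMI-1640 with fetal bovine serum. In each line, control cells were compared with cells in which HCP5, a long non-coding RNA gene, was silenced, with 3 libraries in each of the 4 groups. The labels name no other treatment, do not describe the silencing or control reagent, and do not say whether the libraries of a group came from separate cultures, so p-values measure the spread between libraries, which may be technical. All values are RPKM as deposited, reads per kilobase of exon scaled to the reads a library had in genes. The length used is the summed length of all exons listed for a gene. Levels of different genes, and ratios between them, therefore depend in part on the exons listed and compare only roughly.

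DNA replication begins at origins. The origin recognition complex (ORC) marks them, and CDC6 and CDT1 then load the ring-shaped MCM2-7 helicase, a step that geminin (GMNN) blocks by binding CDT1. The kinase CDC7 with its activator DBF4, together with MCM10, CDC45 and the GINS complex, turns the loaded ring into a working helicase. Polymerase alpha-primase starts each new strand, the clamp loader RFC places the sliding clamp PCNA, and polymerases delta and epsilon extend the strands while RPA covers single-stranded DNA. FEN1 and LIG1 finish and join the short fragments of the lagging strand, and RRM1, RRM2, TYMS and TK1 supply the deoxynucleotides. Many of these genes are transcribed as cells enter S phase, under E2F transcription factors, so their RNA level follows the share of cycling cells. In bulk samples, fewer cycling cells and less RNA per cell cannot be told apart.

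Depth ran from 20035025 to 28202422 reads per library, counted back from the RPKM steps, and every silenced KYSE150 library was deeper than every control of that line. The members were supported by 113 to 27236 reads per library. The thinnest value was POLE2 in KYSE150 control 2, at 1.86 RPKM with an exact 95% Poisson interval of 1.54 to 2.24, which covers counting error only. Summed markers of squamous epithelium (8 of 8 at 1 RPKM or more) were at 1102 to 3132 RPKM in all libraries. Fibroblast, leukocyte and other tissue markers each stayed under 1 RPKM, and of 4 endothelial markers only CDH5 exceeded 1, reaching 2.03 in KYSE510. HCP5 itself measured 0.779, 0.745 and 0.786 RPKM in KYSE150 controls against 0.315, 0.418 and 0.579 in silenced cells, and 0.914, 1.85 and 1.40 against 0.505, 0.951 and 0.948 in KYSE510. The silenced means were thus 56.8% and 57.6% of control, and the libraries overlapped in KYSE510 but not in KYSE150. By limma on the log2(RPKM + 0.5) scale HCP5 differed by -0.45 ± 0.20 (SE; adjusted p = 0.267) in KYSE150 and -0.53 ± 0.20 (adjusted p = 0.646) in KYSE510. Its mean over the lines was -0.49 (adjusted p = 0.185, and 0.0295 with replicate numbers as a block), and neither line alone passed the test for HCP5 itself. Among the libraries, KYSE150 control replicate 3 lay with the silenced libraries for some members, and results that change without it are given both ways.

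Replication genes were expressed well above the typical gene in both lines. The median member was at 17.9 RPKM in KYSE150 controls, 18.4 in KYSE150 silenced cells, 17.1 in KYSE510 controls and 17.2 in KYSE510 silenced cells, where the median tested gene was at 3.31, 3.67, 3.24 and 3.15. MCM3, a subunit of the helicase ring, was highest in KYSE150 at 283 ± 6.44 RPKM in controls (SD, n = 3), and TYMS, thymidylate synthase, was highest in KYSE510 at 293 ± 4.74. POLE2, a subunit of polymerase epsilon, was lowest in KYSE150 at 2.18 ± 0.294, and PRIM2, the large primase subunit, in KYSE510 at 3.09 ± 0.34. PRIM2 measured 3.29, 3.21 and 3.78 RPKM in KYSE150 controls, 3.37, 4.39 and 4.12 in KYSE150 silenced cells, 2.70, 3.32 and 3.26 in KYSE510 controls and 2.76, 2.74 and 3.11 in KYSE510 silenced cells. When members were ordered by mean, the libraries of neighbours in that order overlapped for 35 or 36 of the 45 neighbouring pairs in each group, so the order is firm only in broad steps.

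**Figure D1:**
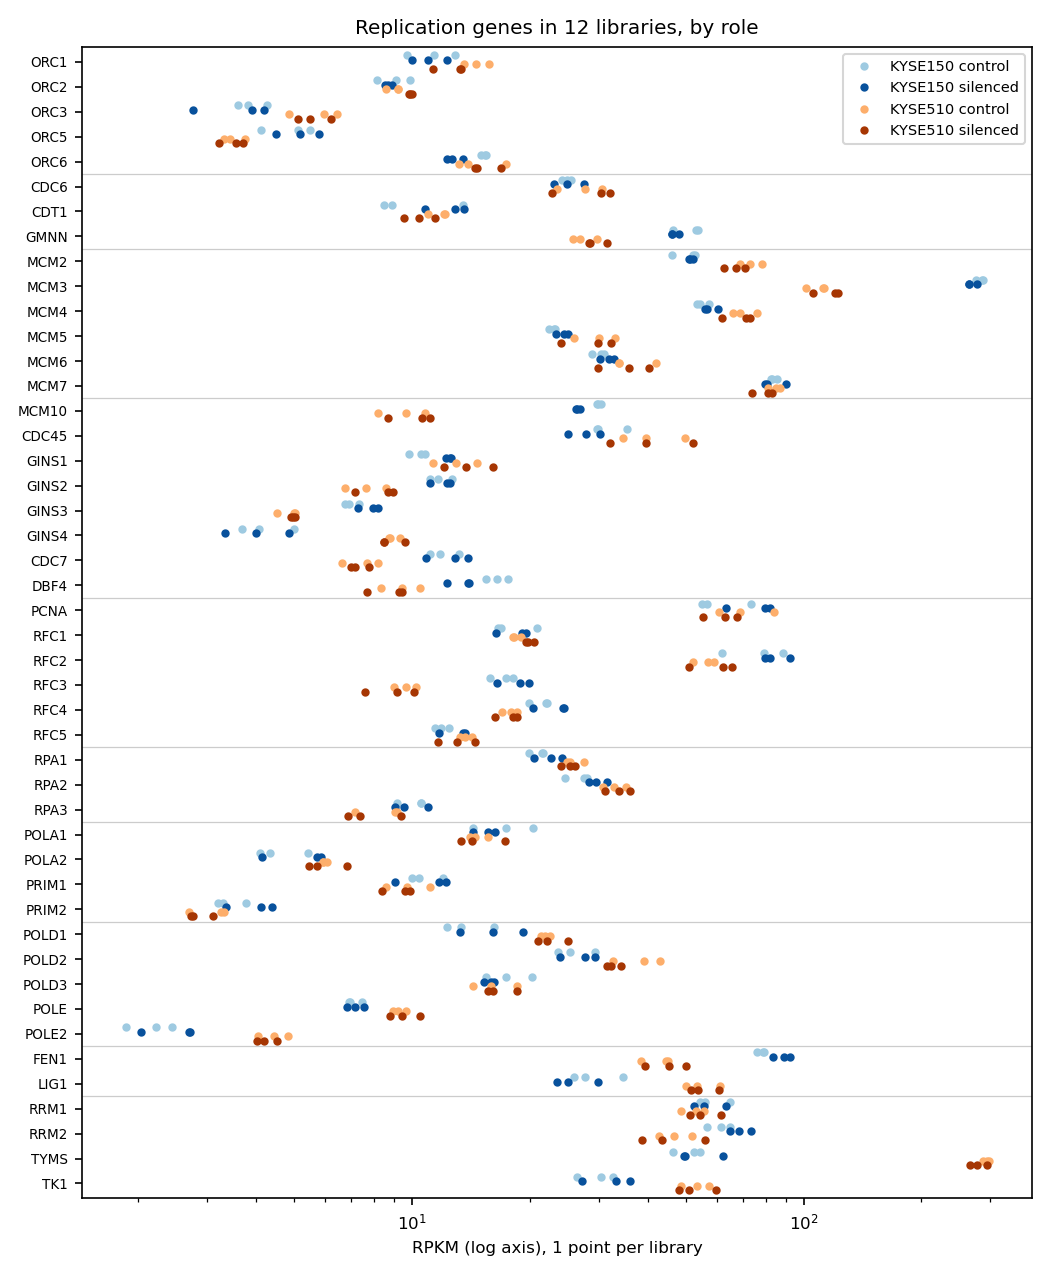
RPKM (log axis) of the 46 replication genes in each of the 12 libraries, 1 point per library, ordered by role and coloured by group. Control and silenced points of a line lie on top of each other for most genes, whereas TYMS, MCM3 and MCM10 separate the lines.

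The first question was whether replication genes moved when HCP5 was silenced. None of the 46 members passed an adjusted p of 0.05 (limma, Benjamini-Hochberg over 17823 tested genes) in KYSE150, where 0.499% of all tested genes did, or in KYSE510, where 0.0393% did. Fitted with voom on the recovered reads, 0 members passed in either line. At an unadjusted p under 0.05 there were 3 members in KYSE150 (DBF4, GINS1 and ORC6) against 18.1% of all genes, and 0 in KYSE510 against 6.35%. The log2 fold changes of members ran from -0.29 to 0.28 in KYSE150, with a median of 0.05 where all tested genes had 0.08, and from -0.22 to 0.13 in KYSE510, with a median of -0.01 against -0.02. These directions depend on scaling: centring each library on its median gene moved the median of all genes in KYSE150 by -0.13 and turned the member median there to -0.08, and in KYSE510 it turned the member median to 0.01. Members with a positive value numbered 30 in KYSE150 and 19 in KYSE510, beside 66.1% and 43.0% of all genes, and centring made these counts 12 and 25.

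The intervals bound the size of a change on the log2(RPKM + 0.5) scale, within this fit and scaling only. They do not cover the shift by scaling or the weight of single libraries. The CDT1 estimate in KYSE150, for example, ran from 0.16 to 0.48 when each library was left out. In KYSE150 the 95% interval lay within 1.5-fold either way for 44 of the 46 members, and the widest bound was 1.54-fold, for CDT1. In KYSE510 all 46 intervals lay within 1.5-fold, and the widest bound was 1.43-fold, for PCNA. Averaged over both lines, 0 members passed (0.539% of all genes), with 2 at an unadjusted p under 0.05 (11.5% of genes), and every interval lay within 1.29-fold. The change did not differ detectably between lines for any member (0 passed, as for 0% of all genes), although 12.2% of all genes and 0 members had an unadjusted p under 0.05 for that difference. With same-numbered libraries as blocks, the members at an unadjusted p under 0.05 numbered 11 in KYSE150 (30.8% of all genes), 2 in KYSE510 (13.2%), 5 for the mean over lines (20.3%) and 8 for the difference between lines (25.9%).

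**Figure D2:**
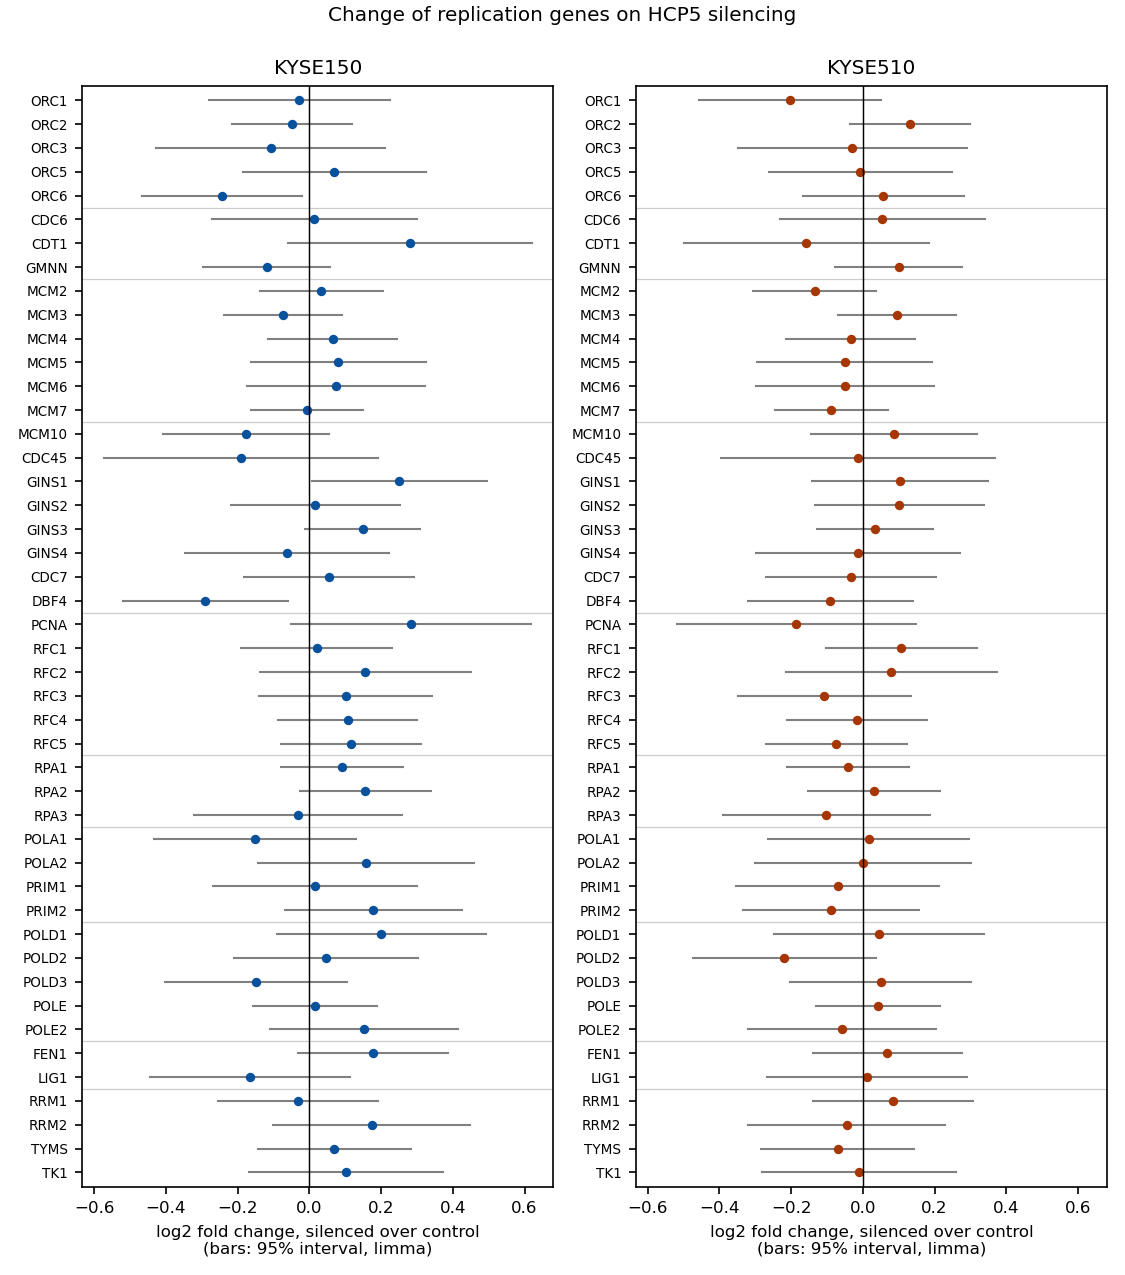
log2 fold change of silenced over control cells on the log2(RPKM + 0.5) scale for each replication gene in KYSE150 (left) and KYSE510 (right), with 95% intervals from limma. Nearly all intervals cross 0; DBF4, ORC6 and GINS1 in KYSE150 are the exceptions, and none passed after adjustment.

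By role, the lowest value in KYSE150 belonged to a helicase-activation gene. DBF4, the activating subunit of the CDC7 kinase (chromosome 7, 87876216 to 87909541, GRCh38), measured 16.5, 17.6 and 15.5 RPKM in controls and 14.0, 12.3 and 14.0 after silencing. All 3 silenced libraries lay below all 3 controls. The log2 difference was -0.29 ± 0.10 (SE, adjusted p = 0.200). In KYSE510 DBF4 measured 9.42, 10.5 and 8.37 against 9.29, 9.47 and 7.69, a difference of -0.09 with overlapping libraries, and it was lower in all 6 same-numbered pairs. Its partner CDC7 differed by 0.05 and -0.03 in the 2 lines.

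GINS1, a subunit of the GINS complex (chromosome 20, 25407727 to 25452628), went the other way. It measured 10.8, 10.5 and 9.83 RPKM in KYSE150 controls and 12.2, 12.6 and 12.6 in silenced cells, without overlap. The difference was 0.25 ± 0.11 (SE, adjusted p = 0.268). With same-numbered libraries as blocks it was the only member to pass in KYSE150 (adjusted p = 0.0456), in a fit that called 6.7% of all genes. In KYSE510 GINS1 measured 14.7, 11.3 and 13.0 against 16.1, 12.1 and 13.8, higher in each pair but overlapping, with a difference of 0.10 that was at -0.00045 without silenced replicate 1. The other GINS subunits differed in KYSE150 by 0.02 (GINS2), 0.15 (GINS3) and -0.06 (GINS4), so the 4 subunits of this complex had no common direction. CDC45, the helicase partner of GINS, measured 29.9, 35.5 and 29.8 in KYSE150 controls and 27.8, 30.3 and 25.1 in silenced cells, a difference of -0.19 with overlap. KYSE510 gave 49.8, 34.6 and 39.7 in controls and 52.3, 32.1 and 39.7 in silenced cells, with replicate 1 high in both groups.

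PCNA and CDT1 had the highest positive values in KYSE150 and negative values in KYSE510. PCNA, the sliding clamp, measured 56.6, 55.2 and 73.5 RPKM in KYSE150 controls and 63.3, 79.7 and 82.3 after silencing. Control replicate 3 stood above the other controls and above silenced replicate 1. The difference was 0.28 ± 0.15 (SE, adjusted p = 0.342). KYSE510 gave 60.8, 68.9 and 83.9 against 63.2, 55.5 and 67.8, a difference of -0.19. CDT1, the helicase loading factor, showed the same arrangement, with 8.93, 8.5 and 13.5 RPKM in KYSE150 controls and 10.8, 12.9 and 13.6 after silencing (0.28 ± 0.15, adjusted p = 0.355), and 11, 12.1 and 12.2 against 10.5, 9.58 and 11.5 in KYSE510 (-0.16). Control replicate 3 again lay among the silenced libraries. Without it, CDT1 passed in KYSE150 (0.48, adjusted p = 0.0372), GINS1 was at 0.21 (0.280) and PCNA at 0.41 (0.102), while 7.22% of all genes passed. The difference between lines was -0.47 for PCNA and -0.44 for CDT1, with adjusted p of 0.409 and 0.419.

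Among the ORC genes, ORC6 was the lower one in KYSE150, at 15.4, 15.0 and 15.5 RPKM in controls and 12.7, 12.3 and 13.5 in silenced cells. The groups did not overlap, and the difference was -0.24 ± 0.10 (SE, adjusted p = 0.249). ORC6 in KYSE510 measured 17.4, 13.2 and 13.9 against 16.9, 14.5 and 14.7. In that line ORC1 had a value of -0.20 (adjusted p = 0.869), with 14.6, 13.6 and 15.8 RPKM in controls and 13.3, 11.4 and 13.3 after silencing, and ORC2 had the highest value, 0.13 (0.877), with 9.23, 9.20 and 8.60 against 9.90, 9.84 and 10.0. Neither overlapped between groups. In KYSE150, ORC1 measured 11.4, 9.74 and 12.9 against 10.0, 11 and 12.3, and ORC2 9.10, 9.90 and 8.14 against 8.69, 8.54 and 8.90, both overlapping. RFC1, the large subunit of the clamp loader, measured 18.2, 18.3 and 19.0 in KYSE510 controls and 20.5, 19.9 and 19.5 in silenced cells (0.11, adjusted p = 0.942), without overlap. In KYSE150 it measured 16.6, 20.9 and 16.9 against 16.4, 19.1 and 19.5, with overlap. POLD2, a subunit of polymerase delta, measured 32.7, 43.0 and 39.1 against 31.5, 34.1 and 32.2, and its -0.22 (0.856) was the lowest value in KYSE510, although the groups overlapped. In KYSE150 POLD2 measured 23.7, 25.4 and 29.4 against 23.9, 29.4 and 27.7.

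Groups that did not overlap were also counted, without a model. In KYSE150, 4 members lay higher in all silenced libraries (MCM5, GINS1, RPA2 and FEN1), where 13.7% of all genes did, and 3 lay lower (ORC6, MCM10 and DBF4), where 5.47% did. Together that is 7 of 46, beside 19.2% of all genes. In KYSE510, ORC2 and RFC1 lay higher (5.22% of all genes) and ORC1 lower (6.87%), which is 3 of 46 beside 12.1% of all genes. Across the same-numbered pairs, GINS1, RPA2 and FEN1 were higher in all 6, which is 6.52% of members and 6.70% of tested genes. The MCM2-7 ring subunits stayed between -0.07 and 0.08 in KYSE150 and between -0.13 and 0.10 in KYSE510. The 6 clamp and clamp-loader genes were all positive in KYSE150, from 0.02 to 0.28, where 66.1% of all genes were positive. In KYSE510, 4 of the 6 were negative, where 43.0% of all genes were positive. None of the 6 passed in either line. Their signs depend on scaling, since centring moved the median of all genes in KYSE150 by -0.13.

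Single libraries were high or low for many members at once. In KYSE510, silenced replicate 1 was the highest of its 3 for 28 members, where it was for 24.2% of all tested genes. Silenced replicate 2 was the lowest for 33 members. Its median log2 deviation from the group mean was -0.10 for members and 0.0026 for all tested genes. In KYSE150, silenced replicate 2 was highest for 28 members and 31.2% of genes, and silenced replicate 1 lowest for 30 members. The median deviation in KYSE150 silenced replicate 1 was -0.09 for members and -0.07 for all tested genes. The share of all genes that were lowest was not counted. The number of members higher in the silenced library of a pair was 19, 32 and 28 of 46 in the KYSE150 pairs 1 to 3, where 57.6%, 66.7% and 61.3% of all tested genes were higher. In the KYSE510 pairs it was 36, 15 and 15, beside 58.0%, 39.4% and 38.7% of genes. For most members the libraries of a group were close: the median coefficient of variation was 7.51% to 8.97% across the 4 groups, beside 10.8% to 14.6% for all tested genes.

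The second comparison set the lines against each other, and here replication genes differed in both directions. Among controls 30 of 46 members passed (62% of all genes), 17 higher in KYSE510 (28.3% of genes) and 13 lower (33.7%). Among the silenced libraries, which share none with the controls, 26 passed (64.1%), 12 higher (24.2%) and 14 lower (39.8%). That split depends on scaling. With centring it was 21 members higher and 13 lower, with 5656 and 5461 of all genes in place of 4319 and 7097, and with quantile normalization it was 21 and 14, with 5204 and 6226. In both comparisons with the same sign there were 23 members (51.9% of all genes). The 10 higher in KYSE510 (21.8% of genes) were ORC3, MCM2, MCM4, GINS4, POLD1, POLE, POLE2, LIG1, TYMS and TK1. The 13 lower (30.1%) were ORC5, GMNN, MCM3, MCM10, GINS2, GINS3, CDC7, DBF4, RFC2, RFC3, RFC4, FEN1 and RRM2. Without a model, all 6 libraries of a line lay apart from all 6 of the other for 11 members higher (21.4% of genes) and 12 lower (29.5%), 23 in all (50.9%). These shares are near the background, so the replication genes as a list did not stand out in how often they differed. Large differences were few: 3 members reached a log2 difference of 1 in size among controls (MCM3, MCM10 and TYMS), where 21.3% of all genes did. In the silenced libraries 6 members reached it (these with GINS4, RFC3 and LIG1), where 22.2% of all genes did. Both counts depend on the cutoff and the settings. GINS4, RFC3 and LIG1 were at 0.999, -0.80 and 0.90 in controls, and POLE2 there ran from 0.78 to 1.03 over 22 fits.

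**Figure D3:**
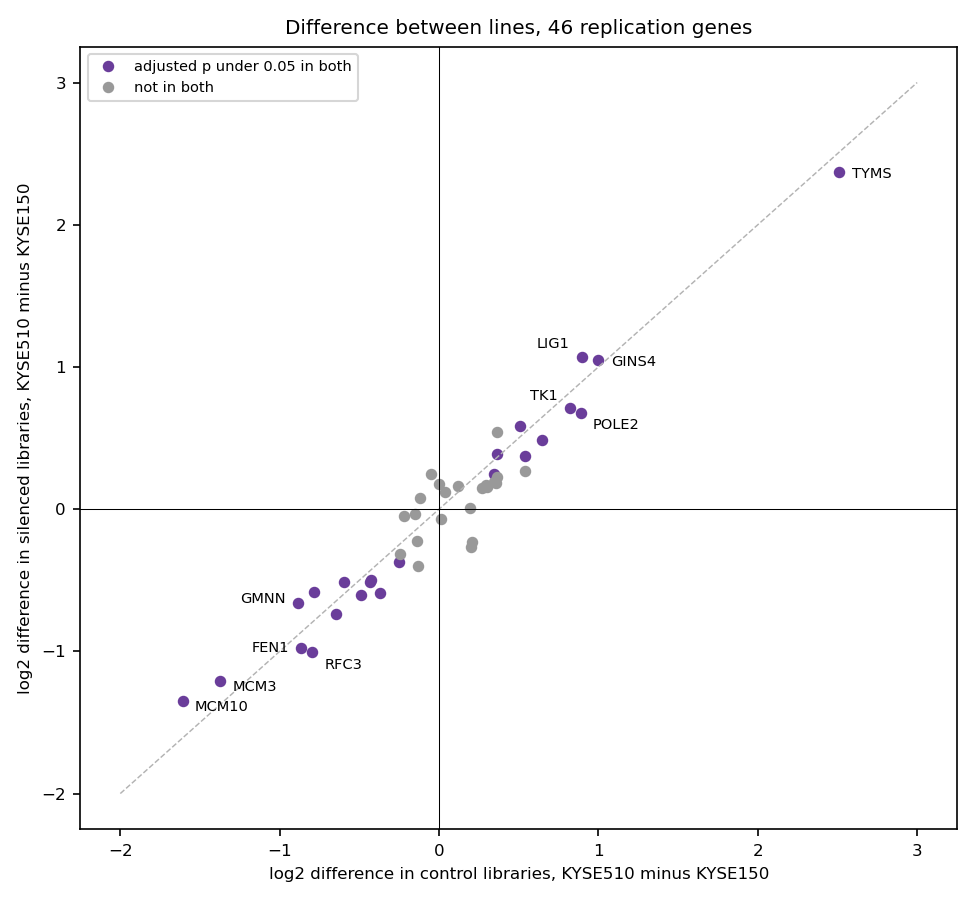
log2 difference of KYSE510 minus KYSE150 on the log2(RPKM + 0.5) scale in controls (horizontal) and in silenced libraries (vertical), 1 point per replication gene, with the line of equal values dashed. Purple points passed an adjusted p of 0.05 in both; TYMS lies far to the upper right at 2.51 and 2.37, and MCM10 and MCM3 to the lower left.

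TYMS, which makes dTMP and is the target of fluoropyrimidine drugs, differed most. It measured 46.3, 54.3 and 52.6 RPKM in KYSE150 controls, 49.4, 62.3 and 49.7 in KYSE150 silenced cells, 288, 297 and 293 in KYSE510 controls and 294, 277 and 266 in KYSE510 silenced cells. Every KYSE510 library was above every KYSE150 library. The difference between controls was 2.51 ± 0.10 (SE, adjusted p = 2.10e-09), or 5.70-fold, and 2.37 in silenced libraries. The gene (chromosome 18, 657604 to 673578, plus strand) overlaps others, and 26.2% of its exon bases are shared with ENOSF1 and TYMSOS on the opposite strand. The use of strand in counting is not given in the sources used here, so reads of the overlap cannot be assigned. TK1, thymidine kinase, the salvage route to the same nucleotide, was higher in KYSE510 by 0.82. The ribonucleotide reductase subunits did not share this: RRM2 was lower by 0.37 (adjusted p = 0.0233) and RRM1 was at -0.15 (0.215). The ratio of TYMS to TK1, which no scaling of whole libraries changes, was 1.71 ± 0.0415 in KYSE150 controls and 5.53 ± 0.374 in KYSE510 controls (SD, n = 3).

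The helicase ring genes went different ways although their proteins act as 1 ring. MCM3 (chromosome 6, 52264009 to 52284881, minus strand) measured 285, 288 and 275 RPKM in KYSE150 controls, 277, 265 and 264 in silenced cells, 113, 101 and 112 in KYSE510 controls and 122, 106 and 121 in silenced cells. It was lower in all KYSE510 libraries, by -1.38 ± 0.07 on the log2 scale (SE, adjusted p = 3.60e-08). MCM2, MCM4 and MCM5 were instead higher in KYSE510 controls, by 0.54, 0.35 and 0.36 (adjusted p = 9.66e-05, 0.00312 and 0.0146), while MCM6 (0.27, adjusted p = 0.0565) and MCM7 (0.01, 0.895) did not pass. In silenced libraries MCM2 and MCM4 passed again, but MCM5 did not (0.23, adjusted p = 0.0924), and its libraries overlapped between lines. MCM3 thus stood at 5.63 ± 0.542 times the median of the other ring subunits in KYSE150 controls and 1.55 ± 0.0859 times in KYSE510 controls. RNA levels alone were measured, not the proteins.

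MCM10, which links the active helicase to polymerase alpha, fell furthest below. It measured 30.4, 29.9 and 29.7 RPKM in KYSE150 controls, 26.4, 26.9 and 26.2 in silenced cells, 9.66, 8.21 and 10.8 in KYSE510 controls and 11.1, 8.73 and 10.6 in silenced cells. The control difference was -1.61 ± 0.11 (SE, adjusted p = 1.59e-07), and the lines did not overlap. GINS4 measured 3.70, 5.01 and 4.07, then 3.34, 4.88 and 4.0 in the KYSE150 groups and 9.32, 8.75 and 8.80, then 9.65, 8.51 and 8.49 in the KYSE510 groups, a difference of 1.0 ± 0.13 (adjusted p = 4.27e-05). GINS2 and GINS3, of the same complex, were lower in KYSE510 by 0.60 and 0.49. The GINS4 to GINS2 ratio was 0.362 ± 0.0757 in KYSE150 controls and 1.17 ± 0.105 in KYSE510 controls. GINS4 shares 23.6% of its exon bases with clone-named genes on the opposite strand, so its level is less certain.

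The brake on licensing was also lower in KYSE510. GMNN (chromosome 6, 24774931 to 24786099) measured 53.1, 53.6 and 46.4 RPKM in KYSE150 controls, 48.1, 46.3 and 46.3 in silenced cells, 29.7, 25.8 and 26.9 in KYSE510 controls and 31.5, 28.3 and 28.5 in silenced cells. All KYSE510 libraries were below all KYSE150 libraries, with a control difference of -0.88 ± 0.08 (SE, adjusted p = 2.50e-06). Its target CDT1 did not pass (0.21, adjusted p = 0.264). GMNN stood at 5.23 ± 1.57 times CDT1 in KYSE150 controls (5.95, 6.31 and 3.43 by library) and 2.35 ± 0.307 times in KYSE510 controls. In silenced libraries the ratio was closer between lines, at 3.81 ± 0.561 in KYSE150 and 2.82 ± 0.288 in KYSE510. CDT1 was then at -0.23 (adjusted p = 0.213), opposite in sign to controls. Both subunits of the origin-firing kinase were lower in KYSE510, CDC7 by 0.65 and DBF4 by 0.78 (adjusted p = 0.000288 and 5.37e-05).

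The enzymes that finish lagging-strand fragments moved in opposite directions. FEN1, the flap nuclease (chromosome 11, 61792637 to 61797244), measured 76.0, 79.3 and 79.0 RPKM in KYSE150 controls, 83.5, 92.5 and 89.2 in silenced cells, 44.6, 38.5 and 45.2 in KYSE510 controls and 50.1, 39.4 and 45.4 in silenced cells. LIG1, the ligase (chromosome 19, 48115445 to 48170603), measured 27.7, 34.7 and 25.9, then 25.1, 29.9 and 23.5 in the KYSE150 groups and 61.2, 53.6 and 50.3, then 60.7, 53.7 and 51.7 in the KYSE510 groups. Neither gene overlapped between lines. FEN1 differed by -0.86 ± 0.09 (SE, adjusted p = 1.13e-05) and LIG1 by 0.90 ± 0.13 (8.68e-05). LIG1 was at 0.377 ± 0.0558 of FEN1 in KYSE150 controls and 1.29 ± 0.156 in KYSE510 controls.

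Of 5 genes of polymerases delta and epsilon, POLD1, POLD2, POLE and POLE2 were higher in KYSE510 controls, by 0.36 to 0.89, where 28.3% of all genes were higher, and POLD3 was at -0.12 (adjusted p = 0.391). In the silenced libraries 3 of the 5 passed (24.2% of genes), and POLD2 was at 0.27 (adjusted p = 0.0605). POLE2 measured 2.23, 1.86 and 2.44 RPKM in KYSE150 controls, 2.03, 2.72 and 2.70 in silenced cells, 4.05, 4.46 and 4.83 in KYSE510 controls and 4.19, 4.02 and 4.54 in silenced cells. Its lines did not overlap, and the difference was 0.89 ± 0.12 (SE, adjusted p = 5.61e-05). Of 5 clamp-loader genes, 3 were lower in KYSE510 controls, RFC2 by 0.43, RFC3 by 0.80 and RFC4 by 0.25, where 33.7% of all genes were lower. RFC1 (0.04, adjusted p = 0.767) and RFC5 (0.20, 0.0753) did not pass. The ratio of RFC3 to RFC5 was 1.44 ± 0.0482 in KYSE150 controls and 0.704 ± 0.0642 in KYSE510 controls. PCNA, RPA3, PRIM1, POLA1 and RRM1 were among the 13 members that passed in neither comparison of the lines. Of the other RPA subunits, RPA1 and RPA2 passed in controls only, each higher in KYSE510 by 0.30.

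**Figure D4:**
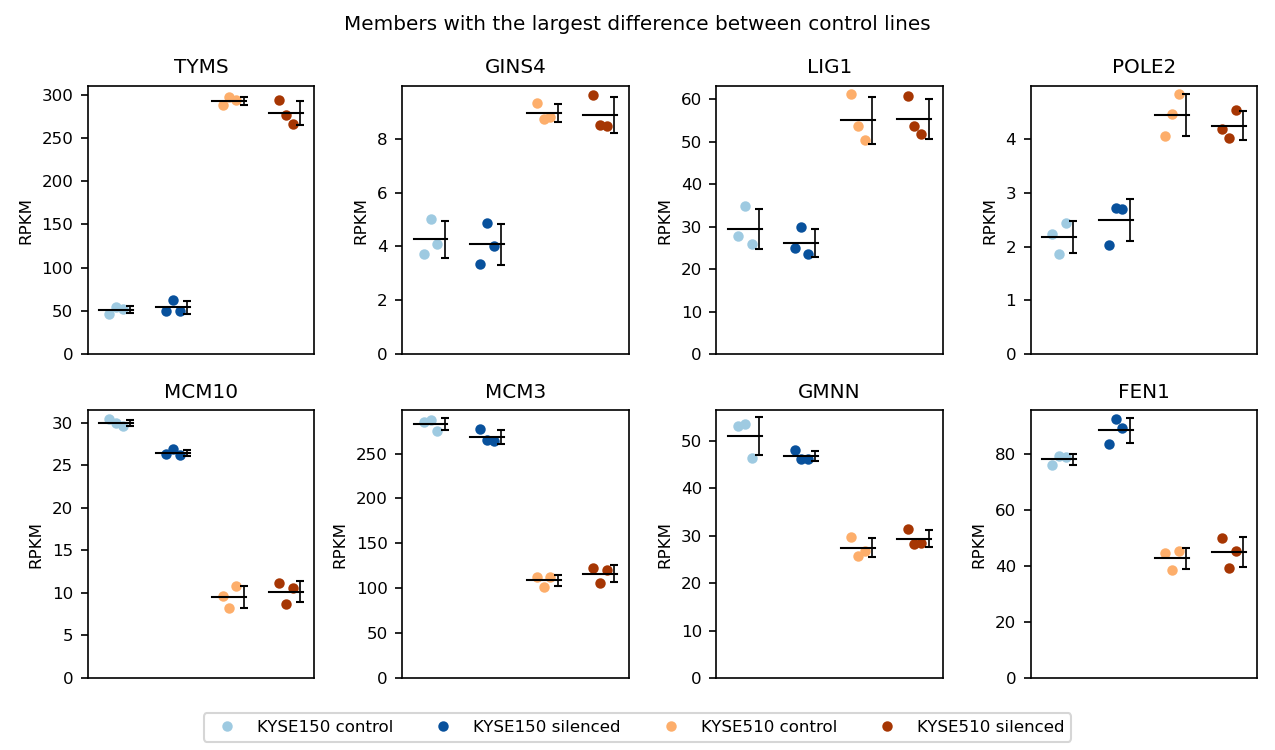
RPKM per library (linear axes from 0) of the 4 replication genes most higher and the 4 most lower in KYSE510 controls, with group means (horizontal lines) and SD (bars, n = 3). The lines separate completely in each panel, and control and silenced libraries of a line lie close together.

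The genomic position of these 8 members was then examined, after their values were known, by taking the 10 tested genes on each side. Around TYMS, where 15 tested genes were available because only 5 lie towards the chromosome end, 14 of 15 neighbours were higher in KYSE510 controls with a median log2 difference of 1.95, USP14 (2.15), THOC1 (1.95), YES1 (2.65) and SMCHD1 (2.22) among them. Around MCM10, 17 of 20 neighbours were lower, with a median of -1.13, and UPF2 (-1.18), CDC123 (-1.35) and OPTN (-2.14) were among them. Around GINS4 12 of 20 and around POLE2 13 of 20 neighbours were higher, and 0 were lower in either, beside 28.3% higher and 33.7% lower among all tested genes. Around LIG1, MCM3, GMNN and FEN1 the called neighbours were mixed, with 7 higher and 3 lower, 4 and 7, 9 and 4, and 6 and 9. The counts in the same direction in both comparisons of the lines were 14 for TYMS, 17 for MCM10, 11 for GINS4 and 12 for POLE2. Some of these neighbours share exon bases with the member, as TYMSOS and ENOSF1 do with TYMS. Over all 46 members, 29 (63.0%) had the same sign as the median of their neighbours in controls, beside 66.7% of all tested genes. Agreement in sign was thus no more frequent for replication genes than for all tested genes. Other measures were mixed. The Pearson correlation of a gene with its neighbour median in controls was 0.69 for members and 0.38 for all tested genes. The Spearman correlation was 0.39 and 0.43. TYMS (neighbour median 1.95, own value 2.51) and MCM10 (-1.13 and -1.61) were the extreme points among members. The Pearson value without them was not computed. In silenced libraries 27 members (58.7%) had the same sign, beside 69.7% of all tested genes. The Pearson correlation there was 0.62 and 0.38, and the Spearman correlation 0.31 and 0.44. DNA copy number was not analysed here.

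**Figure D5:**
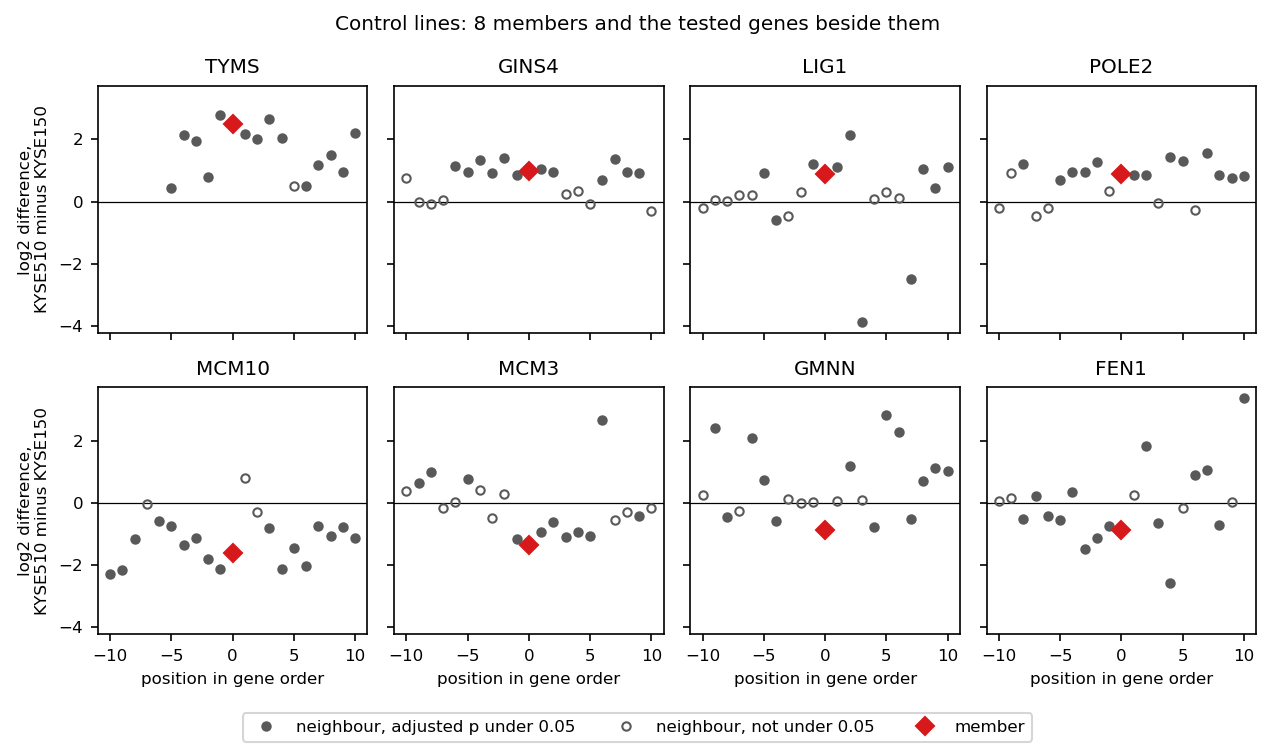
log2 difference of KYSE510 minus KYSE150 controls for 8 replication genes (red diamonds) and the tested genes next to them, by position in gene order, with filled points for an adjusted p under 0.05. Nearly all neighbours of TYMS lie above 0 and nearly all of MCM10 below 0, while those of LIG1, MCM3, GMNN and FEN1 lie on both sides.

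Promoters are shown because TYMS and MCM3, the highest members in KYSE510 and KYSE150, which differed between lines in opposite directions, and MCM6 and PCNA, which did not pass between lines, all carry E2F-type words. TYMS, MCM3 and PCNA hold TTTCCCGC on 1 strand or the other, and MCM6 holds TTTGGCGC and TTTCGCGC. Promoters were matched by symbol to RefSeq (GRCh38.p14) for 40 members; MCM4, MCM5, GINS4, RPA2, RPA3 and POLD3 were not matched. In the 250 bases before the start, both strands were searched for TTTCCCGC, TTTCGCGC, TTTGCCGC and TTTGGCGC. At least 1 of these words was found in 13 of 40 members (32.5%) and in 2.79% of 27305 promoters. The CCAAT box, searched as CCAAT, was found in 22 members (55.0%) and 33.0% of promoters, the E-box CACGTG in 4 (10.0%) and 6.49%, and TTTGAA, a form of the cell cycle homology region, in 1 (2.50%) and 13.6%. Of the 13 members with an E2F word, 4 were higher in KYSE510 in both comparisons (ORC3, POLE, TYMS and LIG1), 3 lower (MCM3, RFC3 and GINS2) and 6 neither. A match is a stretch of letters, not a shown binding site. The sequences below run 5′ to 3′ on the strand of the gene, with E2F words in capitals. They are TYMS at chr18:657403-657633 (plus strand), MCM3 at chr6:52284852-52284992 (minus), MCM6 at chr2:135876444-135876693 (minus) and PCNA at chr20:5126623-5126872 (minus). TYMS and MCM3 are printed shorter so that at most 30 bases of the deposited exon are included. In MCM6 each of the 2 runs of capitals holds a pair of overlapping words, 1 per strand.
TYMS: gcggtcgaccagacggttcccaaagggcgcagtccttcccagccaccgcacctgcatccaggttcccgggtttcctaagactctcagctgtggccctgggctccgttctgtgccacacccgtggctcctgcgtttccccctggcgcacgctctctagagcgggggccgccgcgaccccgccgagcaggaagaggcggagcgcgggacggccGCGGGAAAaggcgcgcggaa
MCM3: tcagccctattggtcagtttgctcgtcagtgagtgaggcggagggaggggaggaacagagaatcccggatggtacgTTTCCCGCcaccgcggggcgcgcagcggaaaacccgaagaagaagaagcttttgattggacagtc
MCM6: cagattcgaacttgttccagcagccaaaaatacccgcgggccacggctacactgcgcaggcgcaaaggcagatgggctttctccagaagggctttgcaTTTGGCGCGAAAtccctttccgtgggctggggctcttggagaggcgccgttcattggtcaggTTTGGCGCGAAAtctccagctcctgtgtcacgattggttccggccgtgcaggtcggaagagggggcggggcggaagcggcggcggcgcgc
PCNA: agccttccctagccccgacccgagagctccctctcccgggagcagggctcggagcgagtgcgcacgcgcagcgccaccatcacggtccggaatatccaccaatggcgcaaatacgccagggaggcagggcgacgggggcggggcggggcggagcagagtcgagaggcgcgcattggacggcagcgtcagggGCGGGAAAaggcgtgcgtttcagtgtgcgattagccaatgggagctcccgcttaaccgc

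Other genes of the pathway were read from lists written alongside the members. None of 32 tested further replication factors, 22 checkpoint genes, 19 E2F and RB family genes or 15 genes of replication-coupled chromatin passed on silencing in either line. At an unadjusted p under 0.05 these 4 lists held 5, 1, 4 and 5 genes in KYSE150 (18.1% of all genes) and 0 each in KYSE510 (6.35%). Their median log2 changes were -0.00054, 0.01, 0.18 and 0.02 in KYSE150 and 0.01, -0.02, -0.03 and 0.06 in KYSE510, beside 0.08 and -0.02 for all tested genes. Of 26 nucleotide supply genes, with medians of 0.07 and -0.06, 1 passed, in KYSE150 (0.499% of all genes). DCK, deoxycytidine kinase, the first enzyme of deoxycytidine salvage (chromosome 4, 70992538 to 71030914), measured 3.60, 3.91 and 3.51 RPKM in KYSE150 controls and 5.77, 6.56 and 6.14 in silenced cells. The groups lay far apart, and DCK rose by 0.67 ± 0.08 on the log2 scale (SE, adjusted p = 0.00864), or 1.59-fold. In KYSE510 it measured 5.69, 6.01 and 6.61 against 7.31, 7.70 and 8.07, again without overlap, a difference of 0.31 that did not pass (adjusted p = 0.362). Its mean over the lines was 0.49 (adjusted p = 0.00351), with a higher silenced value in all 6 pairs, and the difference between lines did not pass (adjusted p = 0.394). With only the 6 KYSE150 libraries in the fit the adjusted p was 0.153. The members that supply deoxynucleotides, TYMS, TK1, RRM1 and RRM2, did not pass on silencing in KYSE150.

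Between control lines, where 28.3% of all tested genes were higher and 33.7% lower in KYSE510, 10 of 32 further replication factors were higher and 7 lower. WDHD1, which tethers polymerase alpha to the helicase, was at 7.53 ± 0.543 RPKM in KYSE150 and 20.1 ± 0.184 in KYSE510 (log2 difference 1.36, adjusted p = 3.10e-08), and CHTF18, of an alternative clamp loader, at 7.76 ± 1.0 and 15.8 ± 0.512 (0.99, 8.37e-06). Of 26 nucleotide supply genes 12 were higher and 7 lower. SAMHD1, which breaks down deoxynucleotides, was at 6.52 ± 0.469 and 2.75 ± 0.132 (-1.11, adjusted p = 5.08e-07). CTPS2, a CTP synthase, was at 1.25 ± 0.0976 RPKM in KYSE150 controls and had 0 reads in each KYSE510 library, at least 176-fold lower against a floor of 3 reads over the group. Of 22 checkpoint genes 3 were higher and 10 lower, with ATM, a DNA damage kinase, at 2.33 ± 0.289 and 0.889 ± 0.144 (-1.03, adjusted p = 1.62e-05). Of 19 E2F and RB family genes 6 were higher and 5 lower. MYBL2, a transcription factor of S and G2 phase genes, was at 75.3 ± 7.28 and 167 ± 10.1 (1.15, adjusted p = 4.35e-06), and RBL2, a pocket protein, at 6.14 ± 0.80 and 2.74 ± 0.707 (-1.05, 0.0011). Of 15 chromatin genes 3 were higher and 5 lower, with ASF1A at 3.19 ± 0.646 and 6.36 ± 1.10 (0.89, adjusted p = 0.00101) and SSRP1 at 177 ± 29.9 and 116 ± 11.5 (-0.60, 0.00274). The median log2 differences of the 5 lists, in the order given, were 0.09, 0.13, -0.19, -0.03 and -0.04, beside -0.07 for all tested genes. In the silenced libraries 8, 6, 4, 6 and 3 genes of these lists were higher and 5, 7, 12, 8 and 2 lower, beside 24.2% and 39.8% of all genes. LRWD1, an ORC-associated protein (3.79 ± 0.267 RPKM in KYSE150 and 1.84 ± 0.249 in KYSE510), and NASP, a histone chaperone (43.9 ± 2.24 and 77.4 ± 4.99), were then among the leading genes. In controls LRWD1 was at 3.42 ± 1.0 and 1.93 ± 0.131. NASP was closer between lines in controls, at 62.0 ± 10.4 in KYSE150 and 72.9 ± 5.69 in KYSE510.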

How the data were processed

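The authors deposited one table of RPKM per gene and library, with exon positions and a summed exon length per gene. HISAT2, DESeq and GRCh38 are named in the submitters' processing notes, and versions, counting rules and use of strand are not given in the sources used here. RPKM times length was a whole multiple of 1 step per library in 100% of values (relative tolerance 0.001), which gave the reads. limma 3.58.1 in R 4.3.3 was fitted to log2(RPKM + 0.5), whose fold changes understate low genes, for the 17823 genes that reached 0.5 RPKM in 3 or more libraries. It had 4 group means, 12 libraries, 8 residual degrees of freedom and a mean-variance trend. Tests were two-sided with Benjamini-Hochberg adjustment over all tested genes and a threshold of 0.05. Errors are SE of a log2 difference or SD of libraries.

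Same-numbered control and silenced libraries of a line, numbered in their titles, deviated together in all 6 pairs (correlation across genes 0.147 to 0.415, and -0.385 to 0.184 for other pairs), so a fit with that block (4 residual degrees of freedom) was the paired alternative. Line comparisons lie between blocks. Other alternatives changed pseudocount, filter, scaling, the test and the libraries used. The members and all lists were chosen with earlier results of these data known. Members with per-library values are the 3 highest and 3 lowest log2 changes in each line, the 4 highest and 4 lowest between control lines, and the highest and lowest level in each group. From each other list, genes called on silencing were named. So were up to 2 of the largest called line differences, in controls and in silenced libraries. Scripts were tested on simulated data. Exon bases are shared with another listed gene for 18 members, and 6 members have a pseudogene listed by name; how the authors assigned reads between them is not given in the sources used here. PCLAF was not used here, and 1 gene that the naming rule selects is not reported here.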

Additional observations from a re-analysis of the deposited data

How the results depend on the processing

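The count of members called on silencing in KYSE150 was 1 with the replicate block, and 0 to 1 when each library was left out in turn. The replicate block changed no other call among the members. The gene was GINS1 with the block and CDT1 without KYSE150 control replicate 3. GINS1 in KYSE510 turned to -0.00045 without KYSE510 silenced replicate 1 and ran from -0.00045 to 0.20 when each library was left out; the cause was not tested. DCK in KYSE150 lost its call with only the libraries of that line, a fit with fewer samples, and the cause was not tested. The members called between lines ran from 25 to 31 in controls and from 23 to 28 in silenced libraries when each library was left out. In the same fits, all genes called ran from 10145 to 11075 and from 10406 to 11750 of 17823. TYMS, GINS4, LIG1, POLE2, MCM10, MCM3, GMNN and FEN1 stayed called in controls in all 22 fits. The number of all genes called on silencing in KYSE150 was 89, 1194 with the block, 7 with only that line's libraries, 154 with quantile normalization, and 15 to 1287 when each library was left out. In KYSE510 it was 7, 3 with a pseudocount of 0.1, 44 without a filter, 11 with quantile normalization, 20 with the block, 0 with only that line's libraries and 2 to 7 when each library was left out. For the mean over lines it was 96, 488 with the block and 43 to 140 when each library was left out, and for the difference between lines 0, 10 without a filter and 0 to 4. Where a group was left with 2 libraries, they shared the spread of the other groups. The depth limits the lowest members most: POLE2 had 113 reads in 1 library.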
